A study of Mus musculus with 123 samples.

Results

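The Oct4-KO early inner cell masses (ICMs) of the mouse were compared with Ctrl early ICMs of the same line, 8 single embryos against 8, that is 16 of the 96 Ctrl and KO embryos of the series, which holds 27 further embryos from mothers with intact genes. They were taken by label, as the embryos of the Oct4 line with the genotype KO or Ctrl and the stage early ICM. The series asks how Oct4, encoded by Pou5f1, and Sox2 act in the embryo while pluripotent cells arise. It measured messenger RNA in single morulae and ICMs of an Oct4 line and a Sox2 line by 3′ sequencing with unique molecular identifiers (UMIs), tags that let copies made by PCR be counted once.

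Embryos of both groups came from superovulated mothers with a floxed Pou5f1 gene that Zp3-Cre, a recombinase active in the growing oocyte, had deleted. In Ctrl embryos 1 intact allele from the father was thus left, so they are not wild type. KO embryos lacked the maternal gene and had a paternal allele with a splice-trap cassette in its first intron, marked with the fluorescent protein mKO2, by which they were picked. All 16 are labelled B6C3F1 and E3.75, had been cultured in KSOM medium with 1 µM of the MEK inhibitor PD0325901 from E2.5 on, and were freed of trophectoderm by immunosurgery, the lysis of outer cells with antiserum and complement. The inhibitor blocks the FGF and ERK signal, on which primitive endoderm depends. Litters are not given in the labels, so a p-value here measures the spread between single embryos.

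The ICM is the inner cell group of the blastocyst and gives rise to epiblast, the pluripotent founder of the embryo proper, and to primitive endoderm, the founder of the yolk sac. The surrounding trophectoderm forms the placenta. Oct4 binds DNA through a POU domain, recognizes the octamer sequence and often binds beside Sox2. It is known as a factor without which the ICM does not keep its pluripotent state and cells in culture drift towards trophectoderm.

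The 16 embryos held 784,645 to 960,732 UMIs each, with a median of 848,898 in Ctrl and 850,316 in KO, and levels are given as UMIs scaled to library size (CPM), where 1 CPM is about 1 UMI in an embryo. Y-linked genes reached at least 10 UMIs in 4 Ctrl and 5 KO embryos. On the first principal component of 5928 genes averaging 20 CPM or more, which held 38.7% of the variance, every KO embryo lay on one side and every Ctrl embryo on the other. The second component held 9.36%. Genes of the mitochondrial chromosome made up 4.54% to 5.84% of UMIs in Ctrl and 5.05% to 7.26% in KO.

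One Ctrl embryo, number 9, stood apart. The summed level of 10 trophectoderm genes (Cdx2, Gata2, Gata3, Eomes, Elf5, Krt7, Krt8, Krt18, Tfap2a and Hand1) was 1252 CPM in it, against 224 to 590 CPM in the other 7 Ctrl embryos. In the KO embryos that sum ran from 651 to 1407 CPM with a median of 1080 CPM, so 7 of 8 Ctrl embryos lay below every KO embryo and embryo 9 lay among them. The sum of 10 naive epiblast genes, which includes Pou5f1 itself, ran from 3674 to 7680 CPM in Ctrl and from 2576 to 4004 CPM in KO. For 10 primitive endoderm genes it ran from 622 to 897 CPM in Ctrl and from 764 to 1240 CPM in KO. Of these 10, Dab2 was called higher (73.5 to 404 CPM by mean), Hnf4a, Pdgfra and Sox17 were called lower, and Col4a1 (143 and 234 CPM), Gata6, Gata4 and Lama1 were not called. All 10 trophectoderm and all 10 epiblast genes had UMIs in both groups, while the endoderm gene Foxa2 had none in either group and Sox7 had none in KO. In bulk ICMs, fewer cells of a type and less RNA per cell cannot be told apart. Where leaving out Ctrl embryo 9 ended the call of a gene named below, or turned a list median or moved it by over 1.5 times, the result without it is given.

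**Figure D1:**
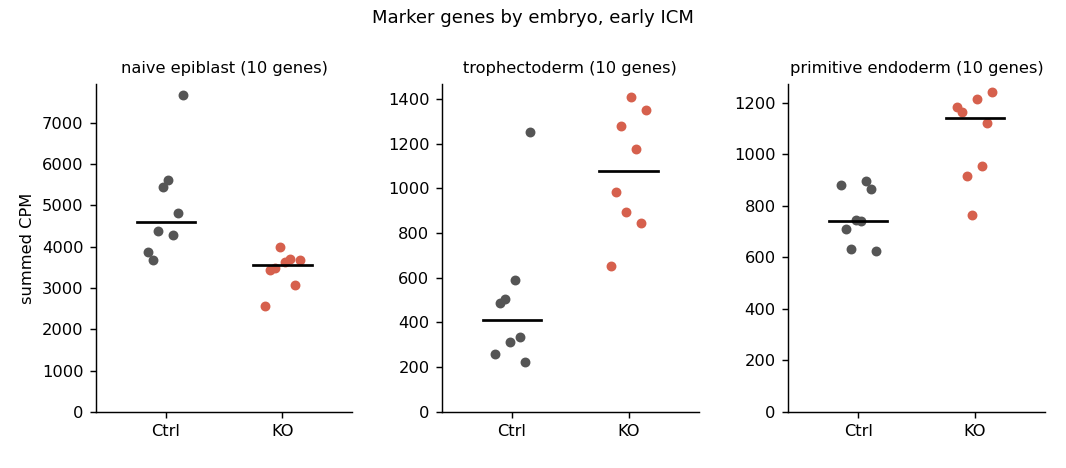
Summed CPM of the 10 marker genes of each cell type (y axes, from 0) in each Ctrl (grey) and KO (red) early ICM, with the group median as a bar. The Ctrl embryo at 1252 CPM in the trophectoderm panel is embryo 9, while the other 7 lie between 224 and 590 CPM.

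Pou5f1 (ENSMUSG00000024406, mm10 chr17:35506018-35510772, plus strand) was the targeted gene. It stood at 57.5 CPM in the lowest Ctrl embryo, 78.8 CPM at the median and 88.9 CPM in the highest. The KO embryos ran from 0 to 4.66 CPM with a median of 0.50 CPM, and the groups did not overlap. Over all embryos there were 550 UMIs in Ctrl and 7 in KO, a ratio of 0.0131 (95% exact Poisson interval 0.00523 to 0.0271, counting error only). The fitted log2 fold change, KO minus Ctrl, was -6.07 ± 0.35 (SE, adjusted p = 1.28e-27). An exon of the predicted gene Gm19553 overlaps Pou5f1 on the opposite strand, and whether strand was used in counting is not stated, so a few reads could belong to either.

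Of 14,053 genes tested, 670 were called higher and 859 lower in KO early ICMs, which is 4.77% and 6.11% of genes and 10.9% together. Calls needed an adjusted p under 0.05 in edgeR and a change of at least 1 on the log2 scale in either direction. The median log2 fold change over all genes tested was 0.01. Every KO embryo lay above every Ctrl embryo for 207 genes (1.47% of those tested) and below for 346 genes (2.46%). Without Ctrl embryo 9 the counts were 657 higher and 771 lower.

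Among 5928 genes averaging 20 CPM or more, 252 were called lower and 215 higher, and the groups did not overlap for 251 and 164 genes. Among 3136 genes averaging 5 to 20 CPM, 264 were called lower and 266 higher, and the groups did not overlap for 68 and 35. Among 4989 genes averaging under 5 CPM, 343 were called lower and 189 higher, but the groups did not overlap for 27 and 8. Of 432 X-linked genes, 30 (6.94%) were called lower and 25 (5.79%) higher, near the 6.10% and 4.73% of autosomal genes. Long non-coding RNA genes leaned upward, with 83 of 943 (8.80%) called higher and 47 (4.98%) called lower at a median log2 fold change of 0.31, against a median of 0.00 for 12,131 protein-coding genes, of which 543 (4.48%) were higher and 784 (6.46%) lower. What lies behind that lean was not tested.

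**Figure D2:**
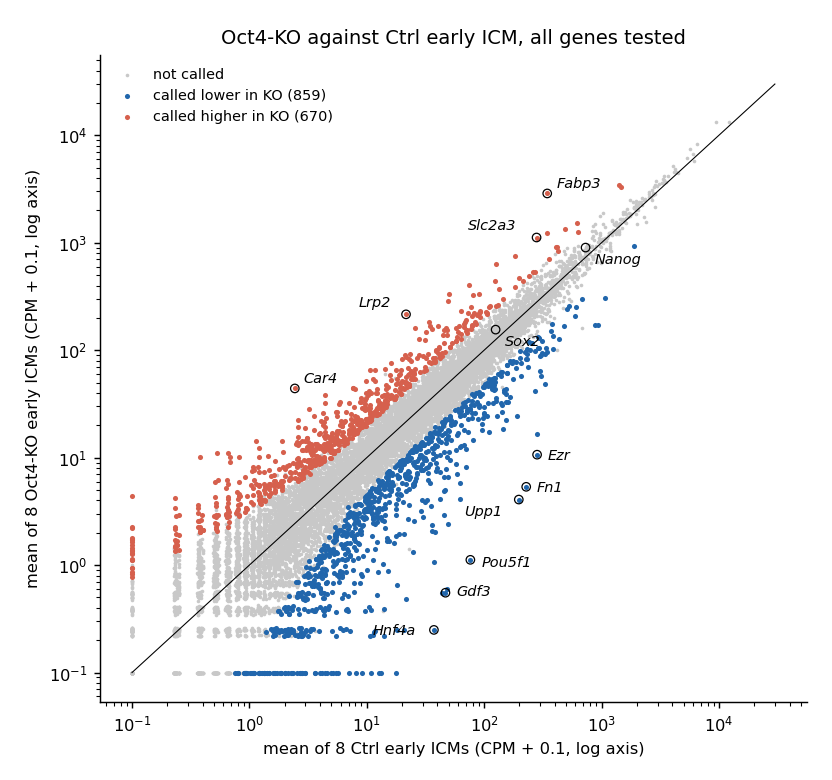
Mean CPM plus 0.1 of the 14,053 genes tested in 8 Ctrl (x axis) and 8 Oct4-KO (y axis) early ICMs, both on log axes, with called genes in blue (859 lower) and red (670 higher) and the line of equal levels. Nanog and Sox2 lie close to that line, while Pou5f1, Hnf4a and Gdf3 lie far below it and Fabp3, Car4 and Lrp2 far above.

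The strongest losses were taken as the 12 lowest log2 fold changes among 287 called genes that reached 20 CPM in one group and did not overlap between groups, 193 of them lower and 94 higher. Pou5f1 is one of the 12. The lowest was Hnf4a, a nuclear receptor known from liver and endoderm (mm10 chr2:163506808-163572910). It ran from 19.4 to 55.1 CPM in Ctrl (median 36.5 CPM), and 268 UMIs in Ctrl faced 1 UMI in KO, a ratio of 0.00383 (95% exact Poisson interval 9.66e-05 to 0.0215). Gdf3, a TGF-beta family ligand of pluripotent cells, ran from 12 to 85.2 CPM in Ctrl and from 0 to 2.33 CPM in KO (log2 fold change -6.38 ± 0.53 SE, adjusted p = 1.31e-17). For Fam25c the figures were 11.7 to 84.2 CPM against 0 to 1.20 CPM (-6.27 ± 0.63 SE). Dglucy, the mitochondrial D-glutamate cyclase, fell to 1 UMI in KO from 150 in Ctrl. Ildr1, a protein of three-cell junctions in epithelia, had 351 UMIs in Ctrl and 4 in KO, all 4 in a single embryo at 4.01 CPM. That the groups did not overlap was a condition for choosing these genes, as it was for the gains below.

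Fn1 encodes fibronectin, an extracellular matrix protein (mm10 chr1:71585520-71653200). It stood at 139, 210 and 356 CPM in the lowest, median and highest Ctrl embryo and at 1.20, 5.16 and 11 CPM in KO (log2 fold change -5.34 ± 0.32 SE, adjusted p = 6.11e-26). Ezr, ezrin, which ties the plasma membrane to actin, ran from 229 to 378 CPM in Ctrl and from 0.968 to 22.7 CPM in KO (-4.73 ± 0.36 SE, adjusted p = 1.61e-19). Upp1, uridine phosphorylase of pyrimidine salvage, ran from 54.4 to 355 CPM in Ctrl and from 0 to 9.33 CPM in KO (-5.58 ± 0.44 SE). Fn1, Ezr and Upp1 were also the most abundant of the 12 in Ctrl embryos, at means of 228, 282 and 197 CPM.

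Sfrp1, a secreted Wnt antagonist, fell from a Ctrl median of 35.3 CPM to a KO median of 0.598 CPM (-5.04 ± 0.53 SE). Pck2, the mitochondrial phosphoenolpyruvate carboxykinase, had 160 UMIs in Ctrl and 3 in KO. Sap30, a subunit of the Sin3 histone deacetylase complex, ran from 23.5 to 74.2 CPM in Ctrl and from 1.00 to 3.8 CPM in KO (-4.34 ± 0.36 SE, adjusted p = 7.67e-18). Exons of another gene overlap Fn1 (Apol7d), Ezr (Sytl3) and Pck2 (Gm10876) on the opposite strand, and reads of the partners could be counted together.

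The 12 highest log2 fold changes by the same rule were smaller than the losses, from 2.53 to 4.14. Car4, a membrane-anchored carbonic anhydrase, led them with 0, 2.21 and 6.23 CPM in the lowest, median and highest Ctrl embryo and 7.01, 24.5 and 119 CPM in KO (4.14 ± 0.55 SE, adjusted p = 3.22e-09). Lrp2, the endocytic receptor megalin, rose from a Ctrl range of 8.60 to 43.9 CPM to 91.2 to 469 CPM in KO (3.31 ± 0.41 SE, adjusted p = 4.37e-10). The gain was largest in absolute terms for Fabp3, a fatty acid-binding protein, with 105, 301 and 767 CPM in Ctrl and 1410, 2364 and 4660 CPM in KO (3.06 ± 0.37 SE, adjusted p = 1.11e-10). Fabp3 shares exon sequence with Zcchc17 and Gm10570 on the opposite strand.

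Ptges, a prostaglandin E synthase, went from a Ctrl median of 31.8 CPM to a KO median of 305 CPM (2.74 ± 0.30 SE). Pla2g10, a secreted phospholipase A2, went from 9.01 to 63.0 CPM at the median (2.59 ± 0.31 SE), and Gsta2, a glutathione S-transferase with close paralogs, from 3.40 to 38.4 CPM (3.07 ± 0.49 SE). Reck, a membrane-bound inhibitor of matrix metalloproteinases, rose by 3.11 ± 0.47 (SE) on the log2 scale, Dusp4, a phosphatase of MAP kinases, by 2.85 ± 0.57, and Nabp1, a single-strand DNA-binding protein, by 2.53 ± 0.22. Syp, the vesicle protein synaptophysin, rose by 2.74 ± 0.49, Basp1, a membrane-attached signalling protein, by 2.63 ± 0.42, and Clic3, a chloride intracellular channel protein, by 2.55 ± 0.43.

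**Figure D3:**
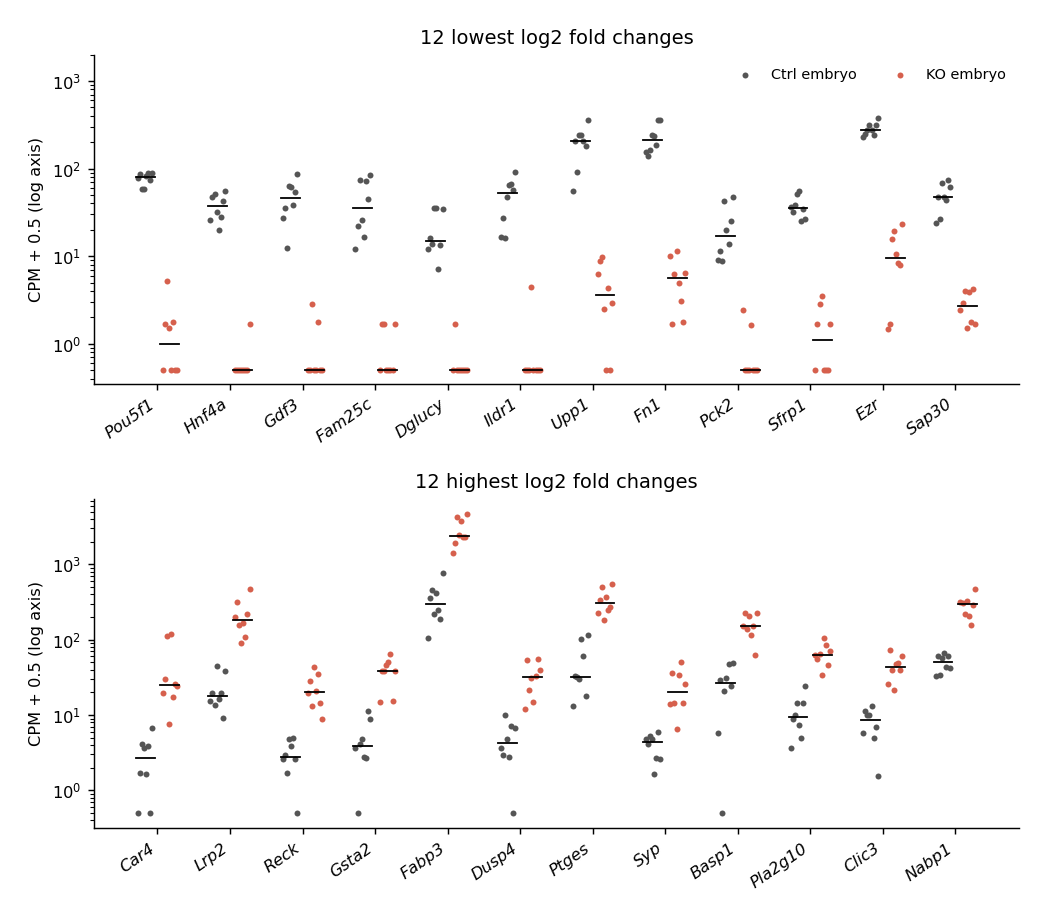
CPM plus 0.5 on a log axis in each of the 8 Ctrl (grey) and 8 KO (red) early ICMs, with group medians as bars, for the 12 called genes with the strongest loss and the 12 with the strongest gain. The 24 genes were chosen among those whose groups do not overlap, and for Hnf4a, Gdf3, Fam25c, Dglucy, Ildr1 and Pck2 the KO median is 0.

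Ranked by the difference in mean CPM among called genes with at least 20 CPM and no overlap between groups, a different set of losses came first. Slc25a5, an ADP/ATP carrier of mitochondria, fell from 1879 ± 636 to 928 ± 134 CPM (mean ± SD, n = 8 each), a log2 fold change of -1.02 that sits just past the limit of 1. Olfr506, an olfactory receptor gene on chr7, fell from 939 ± 286 to 171 ± 102 CPM (-2.46 ± 0.28 SE, adjusted p = 1.59e-11). Pttg1, securin of the mitotic checkpoint, fell from 592 ± 121 to 208 ± 46.7 CPM (-1.51 ± 0.19 SE). Odc1, the first enzyme of polyamine synthesis, Tubb5, a beta-tubulin, Rnf130, a ubiquitin ligase, and Hsph1, a heat shock protein, were called lower at log2 fold changes of -1.18, -1.52, -1.76 and -1.90. Slc25a5 and Tubb5 have near-identical copies in the genome, and reads shared with those copies make their counts uncertain.

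Among called genes with at least 20 CPM and no overlap between groups, the largest gains in CPM after Fabp3 began with Gm2a and Timd2. Gm2a, the GM2 activator of lysosomal lipid breakdown, rose from 346 ± 97 to 1234 ± 490 CPM (1.84 ± 0.24 SE, adjusted p = 1.21e-09). Timd2, a cell surface receptor, rose from 485 ± 124 to 1337 ± 278 CPM (1.46 ± 0.21 SE). Slc2a3, the glucose transporter GLUT3, rose from 280 ± 133 to 1119 ± 409 CPM (2.00 ± 0.32 SE, adjusted p = 8.29e-07), and Alppl2, an alkaline phosphatase, from 183 ± 114 to 755 ± 186 CPM (2.04 ± 0.43 SE). Gpr137b, a lysosomal membrane protein, Cnn3, a calponin that binds actin, and Dab2, an endocytic adaptor, rose by 2.33, 1.11 and 2.45 on the log2 scale.

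Oct4 is known to bind the octamer ATGCAAAT, and promoters were read for it on both strands. RefSeq promoters (GRCm38.p6, 250 bases before to 50 after the start) matched 10,249 of the 14,053 genes tested, or 72.9%, which is under 80%, so the comparison of called with other genes is void and no share among them is given. The octamer was in 570 (1.74%) of the 32,851 promoters of the table. There were 193 lower genes with at least 20 CPM and no overlap between groups. How many of these had a promoter in the table is not given here. Among them the octamer stood in a promoter of Lpcat1 and of Cic, shown here with the octamer in capitals. Neither gene was among the strongest losses named above. Higher genes with the octamer are not listed, so this display does not set lower genes apart from others. Lpcat1 (chr13:73466981-73467280, plus strand) has it at -122 to -115 from the start, and Cic (chr7:25281929-25282228, plus strand) at -146 to -139 on the opposite strand. A match is a description of letters and not a binding site.
Lpcat1: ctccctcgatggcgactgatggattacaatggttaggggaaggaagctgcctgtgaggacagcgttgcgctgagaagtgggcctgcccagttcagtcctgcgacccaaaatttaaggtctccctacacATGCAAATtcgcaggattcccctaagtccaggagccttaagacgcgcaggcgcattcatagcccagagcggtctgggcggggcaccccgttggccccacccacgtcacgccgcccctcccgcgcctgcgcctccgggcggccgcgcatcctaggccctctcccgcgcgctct
Cic: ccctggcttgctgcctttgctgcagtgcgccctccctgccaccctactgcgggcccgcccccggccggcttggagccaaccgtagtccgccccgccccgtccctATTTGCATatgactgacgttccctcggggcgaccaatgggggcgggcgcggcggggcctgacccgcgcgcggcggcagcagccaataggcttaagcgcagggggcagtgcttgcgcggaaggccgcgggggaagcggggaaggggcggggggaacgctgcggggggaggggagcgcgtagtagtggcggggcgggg

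Lpcat1, an enzyme that remodels phosphatidylcholine, stood at 80.3, 108 and 202 CPM in the lowest, median and highest Ctrl embryo and at 13.2, 36.2 and 64.1 CPM in KO (-1.80 ± 0.22 SE, adjusted p = 2.08e-10). Cic, the repressor capicua of the receptor tyrosine kinase pathway, ran from 48.0 to 95.6 CPM in Ctrl and from 16.3 to 34.8 CPM in KO (-1.43 ± 0.20 SE, adjusted p = 2.14e-08). Neither gene overlapped between groups.

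Naive pluripotency factors fell in part. Of 27 tested, 13 were called lower and none higher, with a median log2 fold change of -0.72 against 0.01 over all genes tested, where 6.11% were called lower. The study drew attention to several of these genes in the same embryos, so the count is not independent evidence of its direction. After Gdf3 and Sap30 the largest losses were of Tdgf1, a Nodal co-receptor, from 114 to 464 CPM in Ctrl to 6.74 to 29.8 CPM in KO (-4.11 ± 0.34 SE), and of Tcl1, a cofactor of the kinase AKT, with 55 UMIs against 3. Zfp57, which keeps methylation at imprinted genes, fell by 3.64, Pecam1, a surface adhesion molecule of ICM cells, by 3.20 and Utf1, a chromatin-bound factor, by 2.99 on the log2 scale. Etv5, Esrrb, Prdm14, Klf2, Klf4 and Tfcp2l1, transcription factors of naive cells, had log2 fold changes of -2.39, -2.20, -1.86, -1.45, -1.26 and -1.04. The call of Tfcp2l1 was lost without Ctrl embryo 9 (-0.96).

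The 14 naive factors that were not called held the most abundant ones. Nanog was at a mean of 731 CPM in Ctrl and 902 CPM in KO (log2 fold change 0.30, adjusted p = 0.389), and Sox2 at 125 and 155 CPM (0.31, adjusted p = 0.446). Zfp42, Dppa3, Sall4, Nr5a2, Dppa4 and Tfap2c had adjusted p-values under 0.05 at log2 fold changes of -0.72, -0.62, -0.59, -0.54, -0.43 and -0.67, short of the fold limit. For Klf5, Dppa5a, Dppa2, Tbx3 and Fbxo15 the values lay between -0.40 and 0.43 with adjusted p-values over 0.05, and Manba had 1 UMI in Ctrl and 6 in KO. Among 11 post-implantation epiblast genes, Zic5 was called lower (44 UMIs against 5) and Grhl2, an epithelial factor, higher (1.33 ± 0.24 SE), shares near the 6.11% and 4.77% of all genes, at a list median of -0.56 (-0.30 without Ctrl embryo 9).

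In the LIF and STAT3 list, 4 of 18 were lower and 2 higher, beside 6.11% and 4.77% of all genes (median -0.19, and -0.07 without Ctrl embryo 9). Il6st, the shared receptor subunit gp130 through which LIF signals, had 130 UMIs in Ctrl and 1 in KO, a ratio of 0.00790 (95% exact Poisson interval 0.000198 to 0.0448). Socs2, Jak3 and Il6ra were lower by -2.22, -2.28 and -1.54 on the log2 scale, and Pim1 and Jak2 higher by 1.39 and 1.22. Jak3 shares exon sequence with Insl3 on the same strand. Lifr and Stat3 had log2 fold changes of -0.69 (adjusted p = 0.384) and -0.12 (0.642).

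In the FGF and MAPK list, 4 of 24 were lower and 3 higher, beside 6.11% and 4.77% of all genes (median 0.06, and -0.01 without Ctrl embryo 9). The ligands Fgf4 and Fgf10 fell, Fgf4 from 68.9 to 149 CPM in Ctrl to 5.99 to 60.6 CPM in KO (-2.10 ± 0.37 SE, adjusted p = 6.38e-06), with no overlap, and Fgf10 by 1.88. The early response gene Egr1 and the phosphatase Dusp5 had log2 fold changes of -1.94 and -2.17, whereas the feedback genes Spred1, Ier3 and Dusp4 had 1.33, 2.06 and 2.85. All of these values were taken under MEK inhibition in both groups.

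The BMP list had 3 of 15 lower and none higher, beside 6.11% and 4.77% of all genes (median -0.61). The ligand Bmp4 had 51 UMIs in Ctrl and none in KO, at least 16.6-fold lower with a floor of 3 UMIs over the group. Bambi, a decoy receptor, and Id3, a target that blocks bHLH factors, fell by 2.73 ± 0.38 and 2.21 ± 0.32 (SE), both without overlap. In the Wnt list, 5 of 23 were lower and 1 higher, beside the same shares, at a median of -0.09, and without Ctrl embryo 9 there were 4 lower and 2 higher at a median of 0.06. Next to Sfrp1 these were Fzd5, a receptor, at -1.97, Tcf7l1 and Tcf7l2, nuclear partners of beta-catenin, at -2.79 and -1.88, and Porcn, which lipidates Wnt ligands, at -1.22, while Dkkl1 was higher at 1.88. Without Ctrl embryo 9 Tcf7l1 was not called (-2.16, adjusted p = 0.0818) and Wnt3a was called higher. In the Nodal and TGF-beta list, 1 of 14 was lower, Pcsk6, a protease that processes Nodal (-1.83 ± 0.22 SE), and 1 higher, Smad7, an inhibitor (1.21 ± 0.31 SE), shares near those of all genes, with a median of 0.01 (-0.03 without Ctrl embryo 9).

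Trophectoderm genes rose in part. Of 25 tested, 7 were called higher and 2 lower (median 0.16, with 4.77% of all genes called higher). Gata3, a trophectoderm transcription factor, went from a mean of 81.1 to 327 CPM (2.01 ± 0.33 SE, adjusted p = 1.31e-06), Hand1 from 77.3 to 252 CPM (1.71 ± 0.44 SE) and Eomes from 25.7 to 66.3 CPM (1.36 ± 0.33 SE), each with some overlap between the groups. Tinagl1 and Ctsl, a matrix protein and a lysosomal protease, rose by 2.44 and 1.29 beside Car4 and Fabp3. Cdx2, the factor that defines the lineage, was at 14.1 and 15.6 CPM (0.13, adjusted p = 0.862), Krt8 at 168 and 229 CPM (0.45, adjusted p = 0.52) and Krt18 at 111 and 168 CPM (0.59, adjusted p = 0.47). The 2 called lower, Elf5 and Plac1, rest on Ctrl embryo 9, which held 28 of 32 Ctrl UMIs of Elf5 and 45 of 132 of Plac1. Without that embryo neither was called, Elf3 and Krt18 were called higher as well, so that 9 of 25 were higher and none lower, and the median was 0.73. The part of trophectoderm cells left after immunosurgery was not tested.

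Of 28 epithelial polarity and junction genes, 6 were called higher and 1, Ezr, lower (median 0.07, and 0.24 without Ctrl embryo 9, beside 4.77% higher and 6.11% lower of all genes). The claudins Cldn4 and Cldn7 rose by 1.02 and 1.42, the desmosome genes Dsp and Pkp2 by 1.36 and 1.47, and the tight junction genes Tjp3 and Marveld2 by 1.41 and 1.43, while Cdh1, E-cadherin, was at 224 and 214 CPM (-0.06, adjusted p = 0.798). Of 21 Hippo genes, Amotl1 and Wwc1, regulators at the junction, were called higher and Ccn2, a target of the pathway's effector Yap1, lower (333 to 91.4 CPM, -1.87 ± 0.32 SE), shares near those of all genes, with a list median of -0.01 (0.01 without Ctrl embryo 9). Yap1 and Tead4 were higher by 0.73 and 1.00 with adjusted p-values of 1.05e-06 and 2.76e-06, under the fold limit, which Tead4 passed without Ctrl embryo 9 (1.09). Without that embryo Tead2 and the junction gene Msn were called higher and Wwc1 was not. Of 14 genes of blastocoel water and ion transport, Aqp9 was higher (1.41) and Atp1b2 lower, with 16 UMIs in Ctrl and none in KO (median -0.21). These shares too were near those of all genes. Without Ctrl embryo 9, Aqp8 was called higher as well and the median was 0.05.

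Of 23 primitive endoderm genes tested, 7 were lower and 5 higher, beside 6.11% and 4.77% of all genes (median -0.60, and -0.43 with 5 lower and 4 higher without Ctrl embryo 9). Beside Hnf4a the lower ones were Sox17, a defining factor with 53 UMIs in Ctrl and 1 in KO, Pdgfra, its receptor kinase (38.7 to 7.42 CPM), Apoe, Sparc, and the laminin chains Lamb1 and Lamc1, at log2 fold changes from -4.72 to -1.10. Higher were the endocytic genes Lrp2 and Dab2, and Col4a2, Srgn and Bmp6. Gata6, an early factor of the lineage, was at 444 and 410 CPM (-0.11, adjusted p = 0.80) and Gata4 was near absent, with 13 and 8 UMIs. The calls of Sox17, Lamc1 and Bmp6 were lost without Ctrl embryo 9. Of 17 basement membrane genes, 6 were lower and none higher (median -0.66): Fn1, Timp1, Spp1, Plod2, Itga3 and Itga5, matrix proteins, a matrix enzyme and 2 integrin chains. Spp1, osteopontin, went from a mean of 305 to 57.4 CPM (-2.42 ± 0.65 SE).

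Of 31 glycolysis and pyruvate genes, 3 were lower and 2 higher, beside 6.11% and 4.77% of all genes (median -0.12). Ldha, lactate dehydrogenase A, had 88 UMIs in Ctrl and 3 in KO, and Me2, a mitochondrial malic enzyme, was lower (-1.17), while Slc2a3 and Hk1, a hexokinase, were higher (2.00 and 1.29). Of 21 citrate cycle genes, 4 were lower and none higher (median -0.10), beside the same shares, all 4 without overlap: Aco1 at -2.37, Idh1 at -1.45, Sdhd at -1.11 and Sucla2 at -1.09. Aco1 and Idh1 encode the cytosolic forms of their enzymes. Further members were below the fold limit with adjusted p-values under 0.05, among them Sdha (-0.73), Sdhb (-0.66) and Cs (-0.54) downward and Idh2 (0.69) upward. Of the nuclear genes of oxidative phosphorylation, 1 of 73 was called, Cox6a2, which had no UMI in Ctrl and 30 in KO, at a median of -0.04 (0.00 without Ctrl embryo 9).

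In serine, threonine and one-carbon metabolism, 6 of 21 were lower and 1 higher, beside 6.11% and 4.77% of all genes (median -0.53). Mtap of methionine salvage, Ahcy of S-adenosylhomocysteine removal, Tdh, the threonine dehydrogenase on which mouse pluripotent cells depend, and Mthfd2 were lower at -2.17, -2.11, -2.0 and -1.63. Shmt2 and Mthfd1l were also lower, but not called without Ctrl embryo 9, and Phgdh, the first enzyme of serine synthesis, was higher (113 to 260 CPM, 1.20 ± 0.25 SE). In glutathione metabolism, 6 of 28 were lower and 1 higher (median -0.16), beside the same shares. Except Chac1, which degrades glutathione, the lower ones were transferases (Gstm1, Gstm2, Gsta3, Mgst2, Mgst3), families with close paralogs. Gstm1, Gstm2, Gsta3 and Chac1 lay under 6 CPM in both groups. Without Ctrl embryo 9 Gsta3 and Mgst3 were not called and Gsta4 was called higher beside Gsta2. The study picked out metabolic genes in these embryos too, so these counts are not independent evidence of their direction.

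The transport and lipid lists are read beside the 6.11% of all genes called lower and the 4.77% called higher. Of 22 amino acid transporters, 3 were lower and 1 higher (median -0.17, and -0.08 without Ctrl embryo 9), led by Slc1a4, a carrier of neutral amino acids, with 80 UMIs in Ctrl and none in KO, at least 26.0-fold lower. The others were Slc1a3 and Slc7a7 downward (-2.37 and -1.74, the second not called without Ctrl embryo 9) and Slc6a13 upward (2.12). Of 30 genes of cholesterol and fatty acid synthesis, 3 were called lower and 1 higher, at a median of -0.30. Srebf2, the master regulator of the pathway (-2.27), and Fads1, a desaturase (-1.43, not called without Ctrl embryo 9), were among the lower ones, and Insig1, which restrains the pathway, was the higher one (1.76 ± 0.35 SE). Of 19 genes of lipid binding, storage and transport, Apoc1 was lower (-1.09, not called without Ctrl embryo 9) and none higher (median -0.11, and -0.03 without that embryo).

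Of 17 genes of the integrated stress response, 4 were lower (Nupr1, Atf3, Gpt2, Atf5) and 1 higher, Ddit3, at a median of -0.33, beside 6.11% and 4.77% of all genes. Nupr1 had 134 UMIs in Ctrl and 4 in KO, while Atf4, the factor at the centre of the response, was at 294 and 234 CPM (-0.33, adjusted p = 0.07). Of 18 endoplasmic reticulum chaperone genes, 3 were called higher and none lower, and 17 of 18 had a positive value, at a median of 0.70 (0.65 without Ctrl embryo 9). Xbp1, a transcription factor of the unfolded protein response, rose from 20.8 to 58.7 CPM in Ctrl to 75.1 to 397 CPM in KO (2.30 ± 0.29 SE, adjusted p = 1.02e-09), and Dnajc3 and Calr by 1.20 and 1.01. The call of Calr was lost without Ctrl embryo 9, at 0.95. P4hb, Manf, Dnajb9, Hspa5, Dnajb11 and Pdia4 were higher by 0.48 to 0.97 with adjusted p-values under 0.05 and below the fold limit.

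Of 23 genes of p53 and its targets, Trp53 itself fell from 108 to 32.2 CPM (-1.73 ± 0.27 SE, adjusted p = 4.15e-07, no overlap), Plk2, a kinase, fell by 2.99, and Pmaip1, the death factor Noxa, rose from 31.5 to 124 CPM (1.98 ± 0.34 SE), at a median of -0.12. These shares, and those of the BCL2 list below, were near the 6.11% and 4.77% of all genes. The targets Cdkn1a and Mdm2 had values of 0.24 (adjusted p = 0.746) and -0.12 (0.75). Of 17 BCL2 family and death genes, 1 was called lower and 1, Bnip3, higher (1.14), at a median of -0.06.

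Of 15 genes of DNA methylation and demethylation, 4 were lower and none higher, beside 6.11% and 4.77% of all genes, and 14 of 15 had a negative value (median -0.41, and -0.25 without Ctrl embryo 9). Uhrf1, which brings Dnmt1 to replicated DNA, fell from a mean of 70.6 to 8.17 CPM (-3.10 ± 0.33 SE, adjusted p = 1.66e-12), Tet1, which oxidizes methylcytosine, from 301 to 87.5 CPM (-1.78 ± 0.17 SE, adjusted p = 4.24e-15), Usp7 by 1.12 and Tdg by 1.65. Dnmt1 was lower by 0.79 (adjusted p = 4.01e-05), below the fold limit. Of 29 Polycomb genes, Ezh2 (-1.09), Aebp2 (-1.16) and Cbx6 (-2.71) were lower and Pcgf1 and Pcgf5 higher at the fold limit (1.00 and 1.01), with a median of -0.17. The Polycomb shares were not far from those of all genes. Of 32 DNA replication genes, Gins2 and Mcm6, parts of the replicative helicase, were lower (-1.38 and -1.21) and none higher, a share near the 6.11% of all genes, and 26 of 32 had a negative value (median -0.33). Of 30 genes of mitosis, cyclins and CDK regulators, Cdc25b and Cdkn2c were higher (84 and 80 UMIs in KO against 8 and 13 in Ctrl) and none lower, at a median of 0.00 (-0.02 without Ctrl embryo 9). Their share was near the 4.77% of all genes called higher.

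Of 81 cytosolic ribosomal protein genes (median 0.13), 74 mitochondrial ribosomal protein genes (0.05), 38 proteasome genes (0.18), 13 mitochondrial messenger RNAs (0.33) and 4 Y-linked genes (0.15), none was called in edgeR. Of these, 13, 34, 6, 1 and 2 had a negative value. Without Ctrl embryo 9 the medians of the mitochondrial ribosomal and Y-linked lists were 0.02 and -0.03. At an unadjusted p under 0.05, 20, 12, 14, 6 and 0 were higher and 1, 6, 0, 0 and 0 lower, and DESeq2 called none. Of 20 maternal-effect and oocyte genes, Nlrp4f was lower (23 UMIs against 5, list median 0.01), and of 11 genes of the 2-cell stage, Tcstv1 was higher (7 UMIs in KO and none in Ctrl, list median 0.01). Of 21 imprinted genes, Meg3 was lower (-1.65) and Sgce and Plagl1 higher (2.08 and 1.70), at a median of 0.26. The counts of the maternal-effect, 2-cell and imprinted lists stand beside 6.11% lower and 4.77% higher of all genes and are not far from them. Without Ctrl embryo 9 Tcstv1 and Plagl1 were not called, and the medians of the maternal-effect and 2-cell lists were -0.12 and 0.06. Other calls close to the limits were lost without any of several embryos, among them Jak2, Pcgf1, Pcgf5, Nlrp4f, Fads1, Gsta3, Calr, Bmp6 and Sox17. None of the 12 strongest losses and 12 strongest gains was lost without any 1 embryo. Those genes were chosen for large changes without overlap between groups, so that outcome was largely set by the choice.

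**Figure D4:**
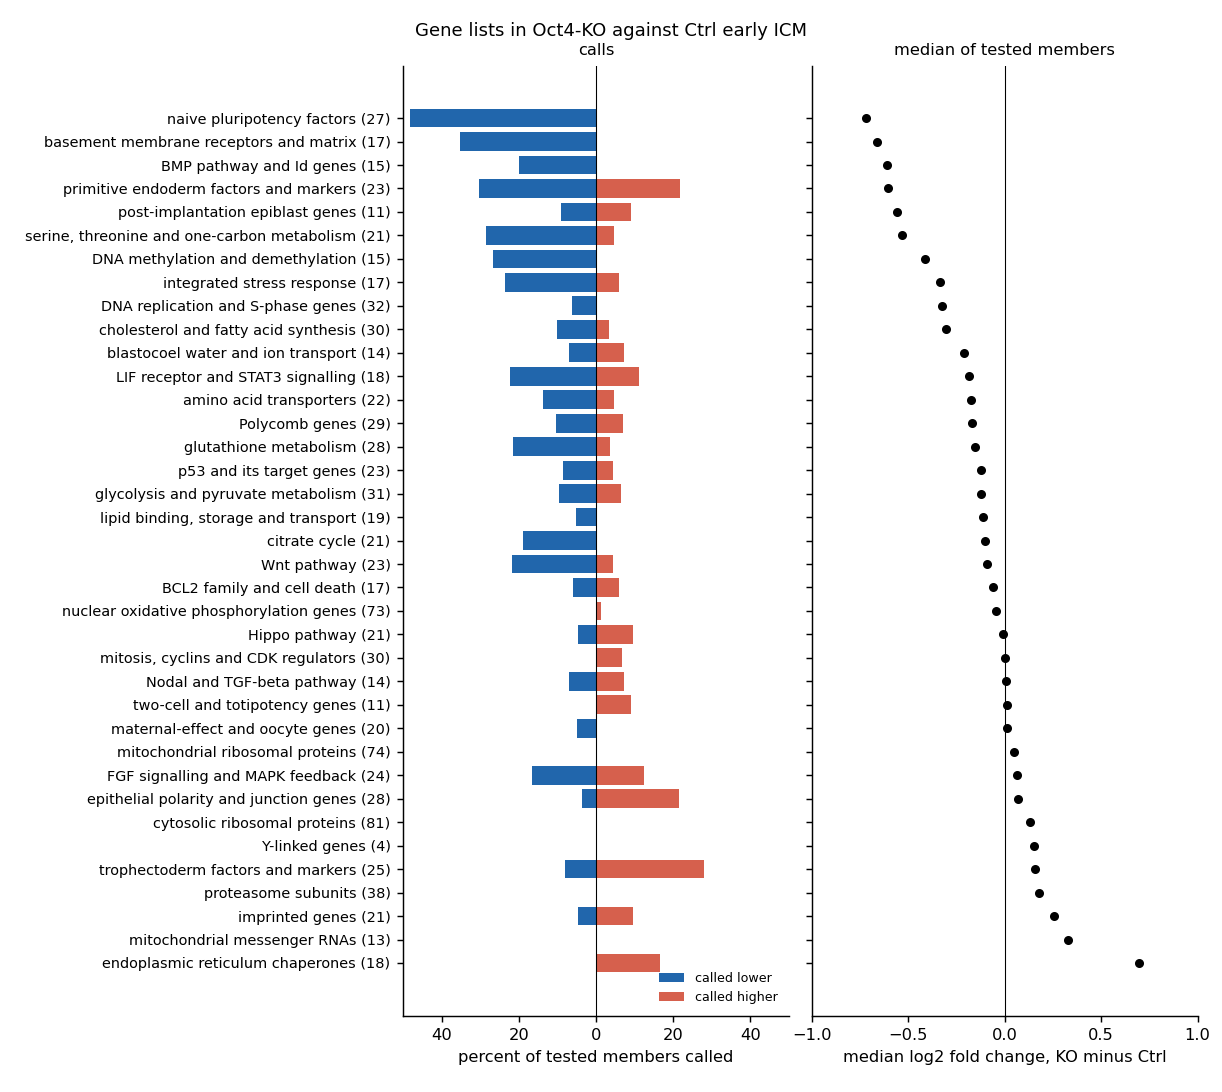
Percent of the tested members of each list called lower (blue, to the left) or higher (red, to the right) and the median log2 fold change of the members, KO minus Ctrl, with the number tested in parentheses. Naive pluripotency factors stand lowest with a median of -0.72 and 13 of 27 lower, and endoplasmic reticulum chaperones have a median of 0.70; without Ctrl embryo 9 the trophectoderm median is 0.73 and that of the chaperones 0.65.

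The genes that change as the ICM forms were read in the Oct4-KO comparison, taking them from the Ctrl embryos of the Sox2 line, which share no embryo with it. From morula to early ICM, 2422 genes (17.2%) were called higher there and 2067 (14.7%) lower. Of the 2422 that rose, 448 (18.5%) were lower in Oct4-KO early ICMs and 56 (2.31%) higher, beside 6.11% and 4.77% of all genes. Of the 2067 that fell, 245 (11.9%) were higher in Oct4-KO and 31 (1.5%) lower. Seen from the other side, 52.2% of the 859 lower genes had risen and 36.6% of the 670 higher genes had fallen from morula to early ICM. Culture with the inhibitor and immunosurgery changed together with stage in that step and cannot be told apart from it.

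The effect in early ICMs was set beside that in Oct4-KO morulae and late ICMs, each with 16 embryos, KO and Ctrl together. Morulae were taken whole at E2.75 without the inhibitor, and late ICMs at E4.5 with inhibitor and immunosurgery. In morulae 25 genes (0.178%) were called higher and 88 (0.626%) lower, and at an unadjusted p under 0.05 there were 834 and 873. Of the 88, 57 (64.8%) were lower in early ICMs, which is 6.64% of the genes lower there. Of the 25, 4 (16.0%) were higher in early ICMs and 1 (4.0%) lower. Of all genes, 4.77% were higher and 6.11% lower in early ICMs. In late ICMs 1300 genes (9.25%) were higher and 1244 (8.85%) lower. Of these, 380 and 506 were called the same way in early ICMs, that is 29.2% and 40.7% of the late calls and 56.7% and 58.9% of the early ones, and 12 were called in opposite directions.

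The difference between the stages was tested directly. Relative to morulae, the Oct4-KO effect was higher in early ICMs for 220 genes (1.57%) and lower for 242 (1.72%). Tdgf1 had a log2 fold change of 0.89 in morulae and -4.11 in early ICMs, a difference of -5.0 ± 0.46 (SE, adjusted p = 2.37e-14), and Fn1 one of -0.55 and -5.34, a difference of -4.79 ± 0.50 (adjusted p = 4.75e-12). Hnf4a, Upp1 and Rnf125, a ubiquitin ligase, were also lower by more in early ICMs, and Car4, Lrp2, Gsta2, Basp1 and Xbp1 higher by more. In Ctrl morulae the means of Hnf4a and Upp1 were only 2.93 and 3.28 CPM, against 37.25 and 197 CPM in Ctrl early ICMs. Fn1 was likewise far lower in Ctrl morulae. Rnf125 and Tdgf1 stood at 28.1 and 46.5 CPM in Ctrl morulae, against 35.65 and 280 CPM. Whether low levels in morulae limit the fold changes there was not tested. Pou5f1 itself was at -5.31 in morulae, with no difference called (-0.76, adjusted p = 0.864).

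Relative to late ICMs, the effect in early ICMs was higher for 146 genes (1.04%) and lower for 291 (2.07%). The naive factors Klf4, Esrrb and Etv5 and the ligand Fgf4 had larger negative log2 fold changes at the late stage, Klf4 -1.26 early and -2.60 late (difference 1.34 ± 0.34 SE, adjusted p = 0.0105) and Fgf4 -2.10 and -4.35 (difference 2.25 ± 0.56, adjusted p = 0.00811). The mean of Fgf4 was 105 CPM in early and 314 CPM in late Ctrl ICMs, and 24.4 and 15.7 CPM in KO. The log2 fold change of Alppl2 was 2.04 early and 5.49 late (difference -3.45 ± 0.70, adjusted p = 0.000989), with means of 183 and 12.5 CPM in Ctrl and of 755 and 556 CPM in KO, so the KO mean was not higher late. Tmem86a, a lysoplasmalogenase, and Ppp1r14a, an inhibitor of myosin phosphatase, also had larger log2 fold changes late. Of the trophectoderm list, 19 of 25 were called higher in late ICMs (median 1.84) and 3 in morulae (0.04). Of the naive list 16 of 27 were called lower in late ICMs (median -1.19) and 2 in morulae (-0.22). Of all genes, 9.25% were called higher and 8.85% lower in late ICMs, and 0.178% and 0.626% in morulae. The difference between stages was tested for single genes and not for lists. Other negative values were larger early: Ezr was at -4.73 in early and -2.51 in late ICMs (difference -2.22 ± 0.47, adjusted p = 0.00198), and Acaa2, a thiolase of mitochondrial fatty acid oxidation, at -2.80 and -0.57 (difference -2.23 ± 0.36, adjusted p = 2.59e-05). Pla2g10 had its larger log2 fold change early, 2.59 against 1.16.

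In Sox2-KO early ICMs against Ctrl of the Sox2 line (16 embryos, KO and Ctrl together), 221 genes (1.57%) were called higher and 238 (1.69%) lower. Of the 238, 116 (48.7%) were lower in Oct4-KO early ICMs as well, which is 13.5% of the genes lower there, and of the 221, 57 (25.8%) were higher in both, 8.51% of the Oct4-KO gains. In opposite directions, 14 Sox2-KO gains (6.33%) were lower and 2 Sox2-KO losses (0.84%) higher in Oct4-KO. Of all genes tested, 6.11% were lower and 4.77% higher in Oct4-KO early ICMs, so the 6.33% is near the share of all genes. The effects differed for 776 genes, with the Oct4-KO effect higher for 296 (2.11%) and lower for 480 (3.42%). Hnf4a was at -7.05 in Oct4-KO and -0.05 in Sox2-KO (difference -7.0 ± 0.72 SE, adjusted p = 1.36e-12), Ildr1 at -6.10 and 0.22, and Pou5f1 at -6.07 and -0.08. Popdc3, a membrane protein of the Popeye family, and St3gal4, a sialyltransferase, had 96 and 58 UMIs in Oct4-line Ctrl and none in KO, at least 31.2-fold and 18.8-fold lower. Reck, Syp, Naalad2, Car4 and Gsta2 rose more in Oct4-KO, and Naalad2, a peptidase, was at 1.98 in Oct4-KO and -1.60 in Sox2-KO (difference 3.58 ± 0.55, adjusted p = 7.98e-07). Of the 27 naive factors, 10 were called lower in the Sox2-KO, with Klf4 at 0.46 and Esrrb at -0.55.

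**Figure D5:**
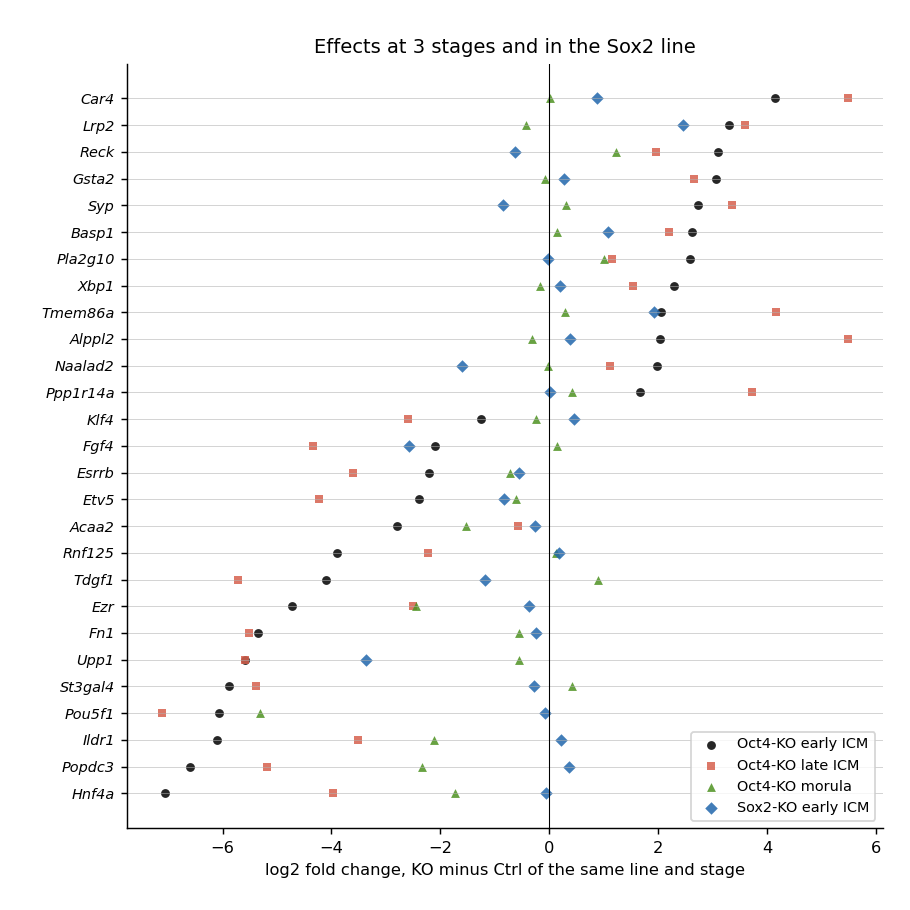
Log2 fold changes, KO minus Ctrl of the same line and stage (x axis), of the 27 genes with the largest called differences, in Oct4-KO early ICM (black circles), late ICM (red squares), morula (green triangles) and Sox2-KO early ICM (blue diamonds). Hnf4a lies at -7.05 in Oct4-KO early ICM and at -0.05 in Sox2-KO, and Alppl2 at 2.04 in early and 5.49 in late ICM; values of genes without a UMI in KO depend on the prior count of the fit.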

How the data were processed

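Per the methods of the study, the authors took UMIs off with UMI-tools, removed poly-A tails (Cutadapt) and mapped reads by TopHat2 onto mm10 and GENCODE vM23. Reads went to genes through featureCounts, TRUmiCount corrected the molecule numbers, and the authors deposited whole-number UMI counts per gene without normalization. Tool versions and the use of strand are not given in the sources used here. The authors also deposited rlog values made with DESeq2, a log2 scale, used here in 1 alternative only. Groups come from the sample labels. Among the 96 Ctrl and KO embryos, genes with a UMI in a share of 0.5 or more of any stage's embryos were tested with edgeR 4.0.16 in R 4.3.3 (TMM, estimateDisp, glmQLFit, glmQLFTest, 12 groups, no covariate), with Benjamini-Hochberg adjustment over all genes, also for the interaction contrasts. The SE is the absolute log2 fold change divided by the square root of F. CPM are TMM-scaled. Alternatives used DESeq2 1.42.0, limma 3.58.1, other scalings, filters and embryos. The code was tested on simulated data. Intervals of UMI ratios are exact, at the 95% level, and cover counting error only, and a group at 0 was set to a floor of 3 UMIs.

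Within the groups, 56 pairs of embryos had a chi-square per gene of 2.93 at the lowest and 4.75 at the median, so none looked like 1 library entered again. The genes named are Pou5f1, the 12 lowest and 12 highest log2 fold changes and the 8 largest CPM differences each way among called genes with at least 20 CPM and no overlap, up to 4 called members each way per list with the members needed to account for it, and the 5 lowest and 5 highest called differences in each of 3 interaction contrasts, passing over predicted genes. Lpcat1 and Cic, Tfcp2l1 and other list members past the fourth were named to account for lists or promoters. The comparison, the members of the lists and the rules were chosen with earlier results of these data known. Overlapping exons come from GENCODE vM21 on the same build. Embryos from mothers with intact genes entered 1 alternative only. ERCC spike-ins and the chromatin and imaging parts were not used here. A few list members and gene overlaps counted above are not reported here by name.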

Additional observations from a re-analysis of the deposited data

Results flagged for a closer look

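Over the genes ranked by fold or CPM difference and the 3 marker sums, 84 groups of 8 embryos were looked at for 1 embryo apart from the other 7 (Dixon's rule), and 6 had one, where chance gives about 1 in 20. In KO embryos these were Pou5f1 at 4.66 CPM in embryo 5, Hnf4a at 1.2 CPM in embryo 18, Dglucy at 1.2 CPM in embryo 2 and Ildr1 at 4.01 CPM in embryo 10. In Ctrl embryos these were Klf4 at 968 CPM in embryo 4 and the trophectoderm marker sum at 1250 CPM in embryo 9. The KO cases rest on few UMIs, with 7, 1, 1 and 4 over all 8 KO embryos for Pou5f1, Hnf4a, Dglucy and Ildr1.

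The Oct4-KO effect differed between stages or from the Sox2-KO effect for the genes named by rule, in log2 units and at an adjusted p under 0.05 in edgeR. Early minus late ICM, it was -3.45 for Alppl2, -2.23 for Acaa2, -2.22 for Ezr, -2.10 for Tmem86a and -2.06 for Ppp1r14a, and 2.25 for Fgf4, 1.83 for Etv5, 1.44 for Pla2g10, 1.40 for Esrrb and 1.34 for Klf4. Early ICM minus morula, it was -5.32 for Hnf4a, -5.02 for Upp1, -5.0 for Tdgf1, -4.79 for Fn1 and -4.01 for Rnf125, and 4.14 for Car4, 3.73 for Lrp2, 3.15 for Gsta2, 2.50 for Basp1 and 2.48 for Xbp1. Oct4-KO minus Sox2-KO in early ICMs, it was -7.0 for Hnf4a, -6.95 for Popdc3, -6.32 for Ildr1, -5.99 for Pou5f1 and -5.59 for St3gal4, and 3.74 for Reck, 3.59 for Syp, 3.58 for Naalad2, 3.28 for Car4 and 2.79 for Gsta2. For Popdc3 and St3gal4, with no UMI in the Oct4-KO group, the value depends on the prior count of the fit.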

How the results depend on the processing

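The 1529 calls (670 higher, 859 lower) stayed within 1.5 times under DESeq2, library totals, DESeq2 size factors, no detection filter, the 16 embryos alone and all embryos, and leaving out 1 embryo gave 1415 to 1562 (579 to 699 higher, 771 to 888 lower). A mean of at least 10 CPM left 8095 genes to test and 943 calls, 485 of them lower. Without a fold minimum there were 2950 (1413 higher, 1537 lower). On rlog values limma called 608 (257 higher, 351 lower); the cause was not tested. Early ICM groups share only the numbers 1 and 2, whose embryos deviated from their group means with correlations of 0.158 and -0.076. These 2 values cannot tell whether a shared number also means a shared litter or batch. A replicate block over these 4 embryos gave 842 calls (418 higher, 424 lower), against 864 (416 higher, 448 lower) without the block. In those 4 embryos Elf5 turned to 0.72 with the replicate block and 0.77 without it. The 3 interaction counts stayed within 1.5 times under each alternative run. Of 151 genes named by rule, 124 kept their call in every fit of 14 or more embryos that tested them except that on rlog values, and 107 in that one too; the minimum of 10 CPM left some of the 151 untested. Leaving out 1 embryo at a time ended the call of 5 to 14 of these genes. Slc25a5, close to the fold limit, lost its call without Ctrl embryo 8 or 9 and KO embryo 1 or 10. Genes under about 5 CPM rest on few UMIs, and intervals cover counting error only.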
